A study of Mus musculus with 21 samples.

Results

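Cells that had met a high dose of antigen 12 h earlier were compared with cells from mice that had met none. The comparison took the 3 libraries of the 80 µg 12 h group and the 3 control libraries, which are 6 of the 21 libraries of the series, and it covered every gene that could be tested, 13814 of the 47643 genes in the count table. All 21 libraries came from CD4+ T cells sorted from spleens of Tg4 Tiger Nr4a3-Tocky mice, with 1 mouse per library and 3 mice in each of 7 groups. These mice carry a transgenic T cell receptor (Tg4) for a myelin basic protein (MBP) peptide, an interleukin 10 GFP reporter (Tiger), and a fluorescent Timer protein under Nr4a3 control (Nr4a3-Tocky), which is blue when newly made and red when mature. Control mice carried the same alleles and were untreated. Immunised mice had received 80 µg of the [4Y] form of the MBP peptide under the skin in PBS without adjuvant, and were taken 12 h later. Per the study's methods the cells of this group were sorted as Blue+Red+, which takes cells holding both new and mature Timer protein. The gate used for the control cells and the ages of the mice are not given in the sources used here. The gate and the treatment therefore cannot be told apart, and p-values measure the spread between mice sorted in this way. Where the differences from control raised a further question, the same group was set beside the 0.8 µg 12 h group, sorted in the same gate, and beside the 80 µg 4 h group, sorted as Blue+Red-.

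A T cell that meets its antigen passes through an ordered response. Signalling first switches on immediate early genes, such as the Nr4a and Egr factors, and the genes for interleukin 2 and its receptor. Over the following hours the cell leaves quiescence, enlarges by building ribosomes, proteins and nucleotides, and enters S phase before its first division. Genes that keep a naive cell resting, circulating and able to receive survival signals from interleukin 7 are turned down in the same period.

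RNA was read from its 3' end. Levels given in threes are those of replicates 1 to 3, for the control group first and then for the 80 µg 12 h group. The 80 µg 12 h libraries held 3443310 to 4953890 counts and the control libraries 2352800 to 3278354. Values below are normalised counts, the counts divided by a size factor for each library, and fold changes are shrunken log2 values from DESeq2. Calls of higher or lower needed a p under 0.05 after Benjamini-Hochberg adjustment over all genes tested, together with a log2 fold change beyond 1 in either direction. The noncoding RNA Gm42418 took 19.9% to 24.5% of the counts in the 80 µg 12 h libraries and 24.0% to 24.7% in the control libraries, and mitochondrial genes took 5.00% to 5.53% and 7.26% to 7.52%. In bulk samples, fewer cells of a type and less RNA per cell cannot be told apart.

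Markers of other cells were at different levels in the groups. The 10 B cell markers summed to 1350 to 1612 normalised counts in the control libraries and 135 to 326 in the 80 µg 12 h libraries, and 7 of the 10 were called lower. Most of this sum was Ighm, the constant region of IgM, at 1111, 1137 and 1203 in the controls and 209, 140.1 and 121 with antigen. Pax5 fell from 56.7, 23.3 and 35.7 to 6.39, 1.47 and 0, Ebf1 from 83.5, 39.5 and 18.6 to 10.96, 8.80 and 2.92 and Cd79b from 53.6, 21.3 and 25.7 to 8.22, 10.3 and 0.972, each without overlap. The defining B cell gene Cd79a, which had no adjusted p, was at 0, 0 and 12.8 against 0, 0 and 0.972, which overlapped. Cd22 and Blnk were not called. Among CD8 markers Cd8a lay at or under 10 counts in all 6 libraries and Cd8b1 fell from 102, 124 and 149.9 to 42.9, 44.8 and 69.99. The 11 myeloid markers in the fit summed to 38.5 to 64.9 in the controls and 22.4 to 112 with antigen, with 1 called lower (Itgam). Summed levels of the 4 NK cell markers (10.3 to 18.6 against 8.75 to 27.2), the 2 platelet markers (2.03 to 18.6 against 0 to 5.48) and the 5 erythroid markers (110 to 689 against 144 to 682) overlapped between the groups. Dendritic cell markers summed to 126 to 131 against 130 to 175, of which Bst2 was called higher and Ccr9 lower. The part of these cells in the changes below was not tested. Markers of CD4 T cells were present in every library, with Cd3e at 947, 864 and 922 and 385, 423 and 381 and Cd4 at 1025, 973 and 1122 and 533, 504 and 642, and the 9 markers tested summed to 13060.0 to 13930.0 in the controls and 6699 to 6979 with antigen.

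The groups differed widely: 5235 of 13814 genes tested (37.9%) were called, 2461 higher (17.8%) and 2774 lower (20.1%). The change was larger than 2 on the log2 scale for 1030 of the genes called higher and 1282 of those called lower, and larger than 4 for 117 and 168. In 5113 of the genes called, all 3 libraries of one group lay outside the range of the other, and this held for 60.1% of all genes tested. The median log2 fold change over all genes tested was -0.11. At the extremes, 327 genes called higher had 3 or fewer counts in every control library, and 329 called lower had 3 or fewer in every 80 µg 12 h library. For genes of this kind the fold is given as a lower bound against a floor of 3 counts per library.

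**Figure D1:**
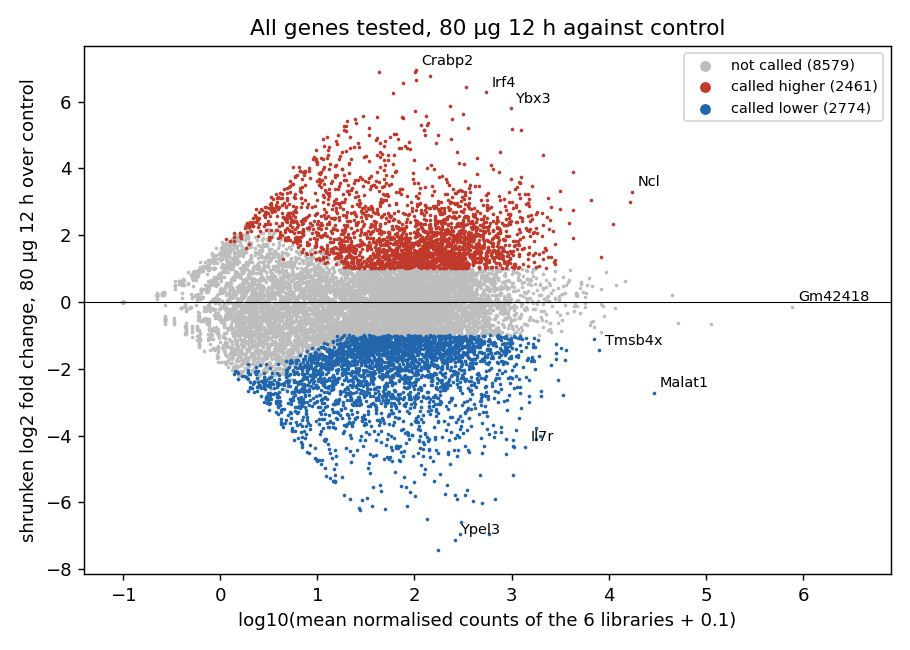
Each point is a gene tested in the comparison of 80 µg at 12 h with control, placed by the mean normalised counts of the 6 libraries (log10 scale) and by its shrunken log2 fold change. The 2461 genes called higher are red, the 2774 called lower are blue, and the rest are grey; Ncl stands out for combining a high level with a rise of 3.30, and Malat1 for a fall from a higher level still.

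The genes of the largest rises and falls were taken from those called without overlap, so the separation of their groups comes from the way they were chosen. Among the rises, Crabp2, a retinoic acid binding protein (GRCm38, chr3:87948666-87953376, plus strand), had 1.03, 1.01 and 0 normalised counts in the control libraries and 194, 189 and 232 in the 80 µg 12 h libraries. It was at least 59.0-fold higher (adjusted p = 5.09e-13). The cytokine gene Il21 (GRCm38, chr3:37222759-37232636, minus strand), whose product helps B cells, rose from 1.03, 2.03 and 0 to 199, 249 and 165, at least 58.9-fold. Gm12534, annotated as antisense to Il21 (GRCm38, chr3:37231333-37232469, plus strand), had no count in any control library and 72.2, 109 and 76.8 with antigen. The exons of these genes overlap on opposite strands and the strand setting of the counting is not stated, so their reads may not be fully separated. Il12rb2, a chain of the interleukin 12 receptor, went from 0, 0 and 1.43 to 159, 174 and 125, at least 44.0-fold, and its exons overlap those of Serbp1 on the other strand.

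Several of the other top genes serve metabolism and DNA replication. Bcat1, which starts the breakdown of branched-chain amino acids (GRCm38, chr6:144993835-145076184, minus strand), rose from 2.06, 0 and 1.43 to 257, 317 and 285, at least 82.4-fold (adjusted p = 7.04e-20). Hk2, the inducible hexokinase that commits glucose to glycolysis, rose from 12.4, 2.03 and 2.86 to 698, 776 and 563 (log2 fold change 6.42, SE 0.41). Mcm10, needed to fire replication origins (GRCm38, chr2:4989714-5012791, minus strand), rose from 0, 0 and 1.43 to 171, 196 and 240.1, at least 58.3-fold. Orc1, a subunit of the origin recognition complex, was at 0, 1.01 and 0 and then 139, 103 and 119.6, at least 34.7-fold higher. Dtl, which directs destruction of the licensing factor Cdt1, rose from 6.18, 5.07 and 8.57 to 462, 439 and 471. The transcription factor Irf4, whose level follows the strength of receptor signalling, rose from 11.3, 12.2 and 14.3 to 1229.6, 1176 and 862 (log2 fold change 6.28, SE 0.27). Ybx3, an RNA-binding protein, rose from 26.8, 41.6 and 28.6 to 1992, 2146 and 1650.5, and Sema7a, a membrane-anchored semaphorin, from 4.12, 0 and 2.86 to 247, 175 and 179.

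Among the 12 largest falls, Ypel3, a gene linked to growth arrest (GRCm38, chr7:126776955-126780514, plus strand), fell from 471, 562 and 532 normalised counts in the controls to 3.65, 2.93 and 1.94 (log2 fold change -7.12, SE 0.43, adjusted p = 4.35e-48). Mxd4, which competes with Myc for its partner Max (GRCm38, chr5:34173883-34187720, minus strand), fell from 623, 561 and 549.6 to 6.39, 1.47 and 3.89. Zbtb20, a zinc finger repressor, went from 1089.5, 1263 and 1111 to 6.39, 7.34 and 10.7. Txnip, which restrains glucose uptake, fell from 778, 989 and 1172 to 17.4, 5.87 and 10.7, and Rapgef4, a Rap exchange factor activated by cAMP, from 324, 243 and 241 to 2.74, 3.67 and 0. The surface receptor Cd7 was at 51.5, 57.8 and 52.8 in the controls and had no count in any 80 µg 12 h library, at least 20.6-fold lower. Fry and Mturn were at least 63.3-fold and at least 37.9-fold lower. The other genes among these falls that are given here are poorly described: Gm14085 (215, 336 and 497 in the controls and 0, 0 and 3.89 with antigen), Gm11346 (615, 600.3 and 562 and 10.05, 4.40 and 1.94), Gm37283, which had no count with antigen, and Gm15675, which had 1 count with antigen.

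**Figure D2:**
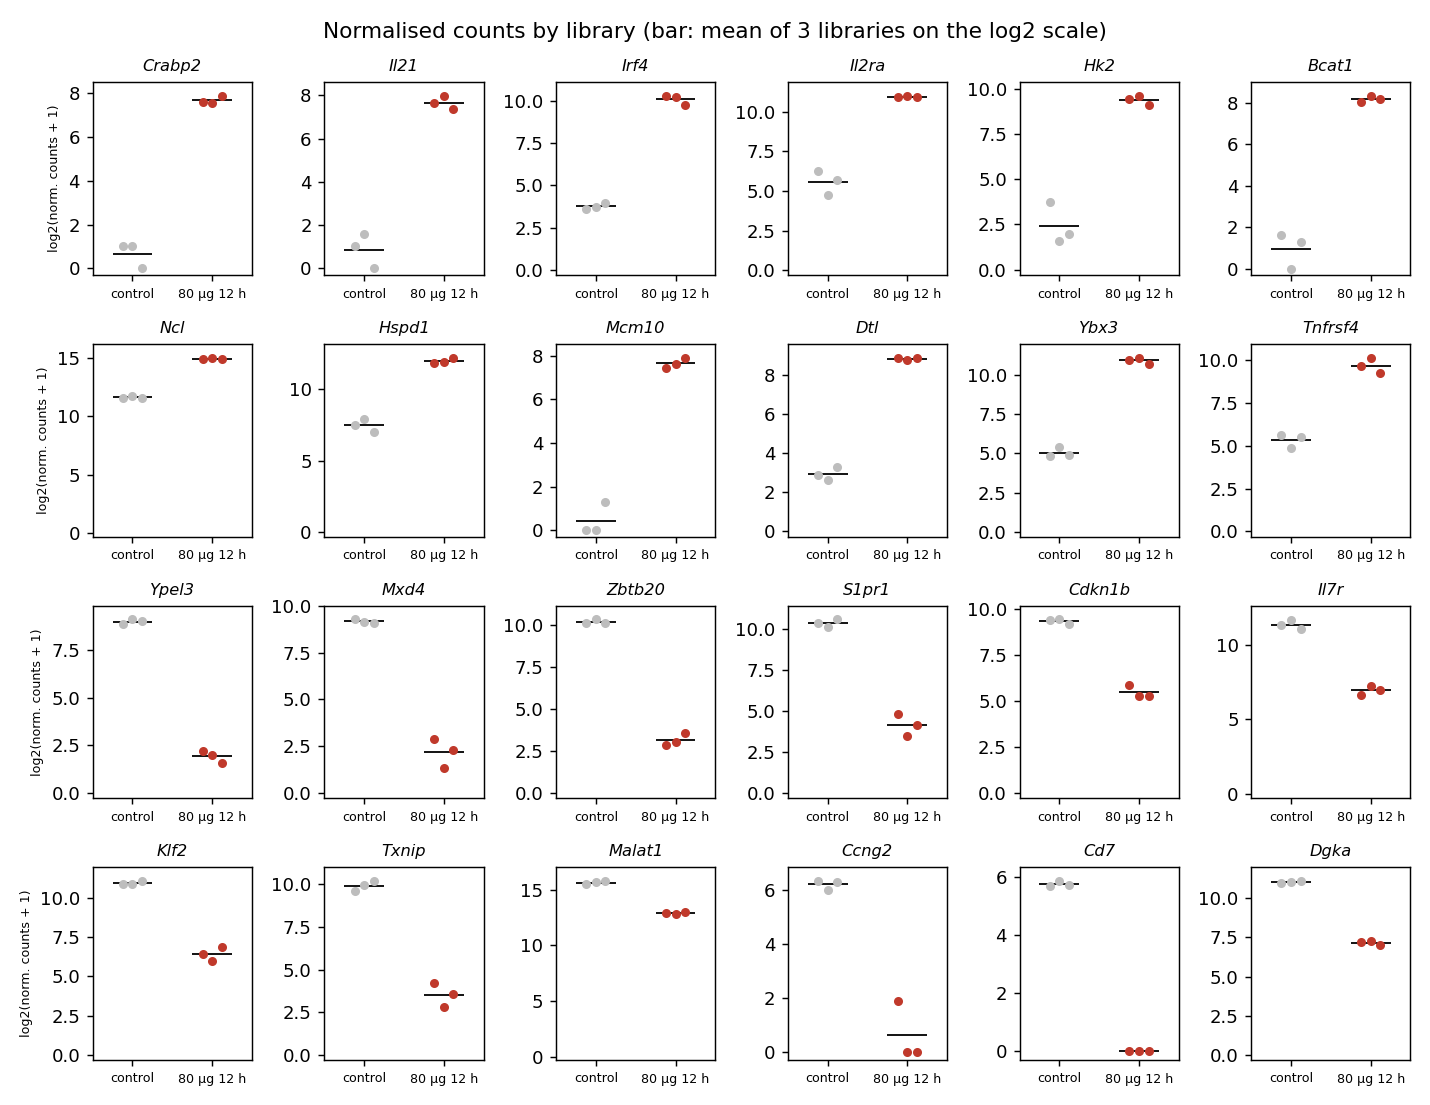
Normalised counts of 24 genes, picked from those described in the text with their values known, in each control library (grey) and each 80 µg 12 h library (red), as log2(normalised counts + 1), with a bar at the mean of the 3 libraries on that scale. Their groups lie apart because such genes were picked; Crabp2, Mcm10 and Bcat1 are near 0 in the controls and Cd7 at 0 in all 3 libraries with antigen.

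To describe the response by function, 39 gene lists were set against the whole transcriptome, in which 17.8% of genes were called higher and 20.1% lower. Members and lists are described by counts and medians, since they were chosen with results of these data known. Of the 5235 genes called, 5113 had groups that did not overlap. Separation of the groups in the called genes named below therefore comes largely with the call. Lists of the growth machinery lay at one end, led by replication (median log2 fold change 2.82), chaperones (2.54) and ribosome biogenesis (2.38). Naive and quiescence genes lay at the other end (median -2.66), after cytokine receptors (-1.50) and Gimap genes (-1.47).

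**Figure D3:**
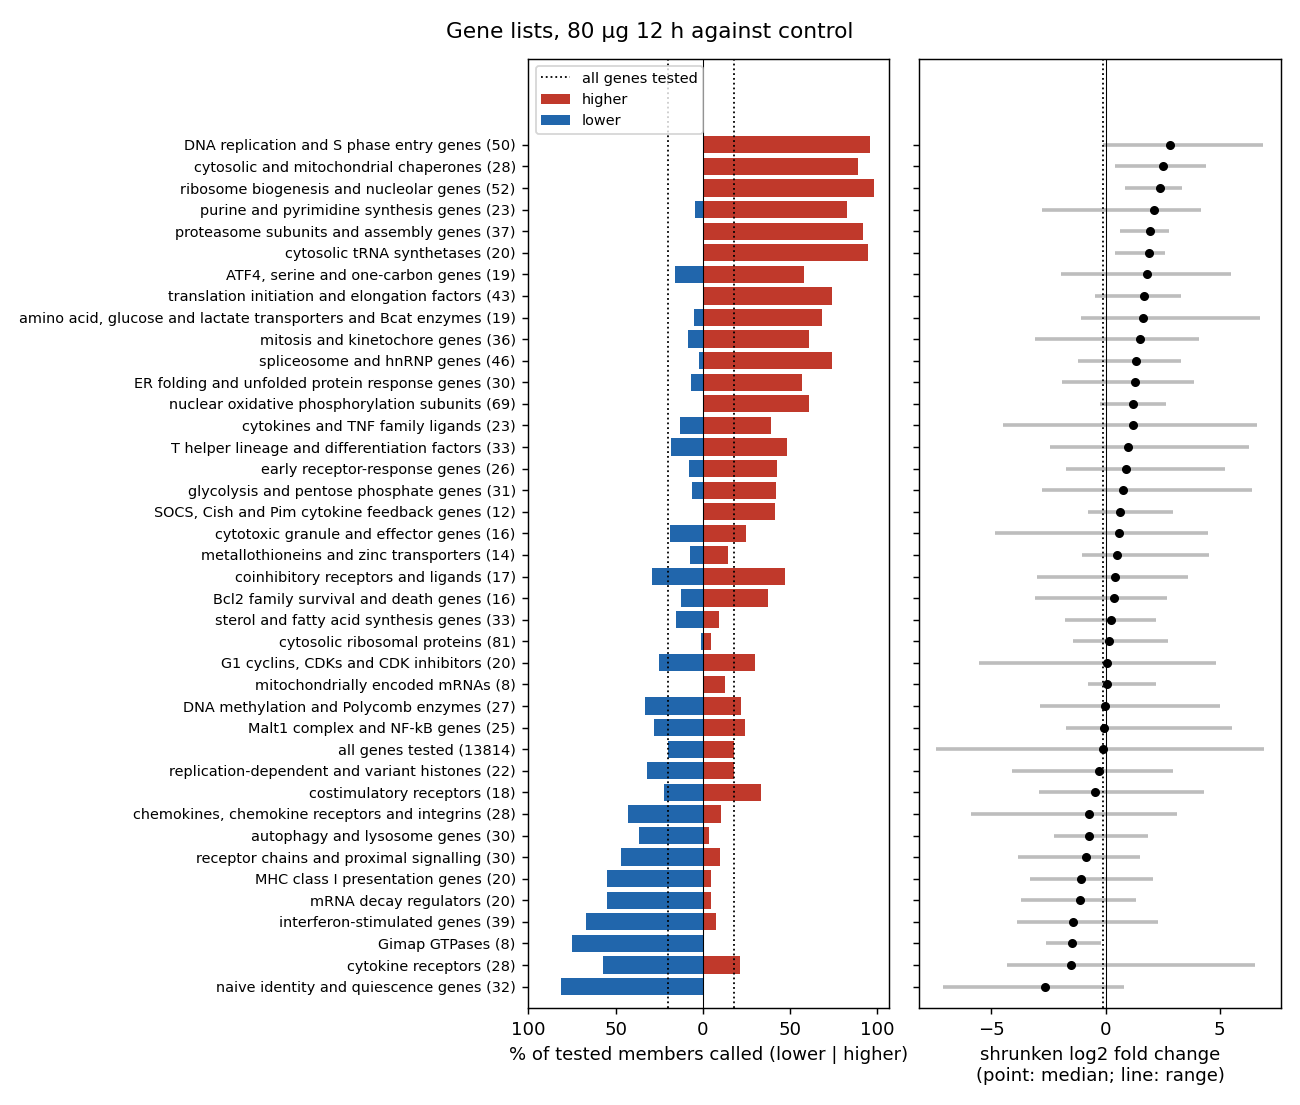
For each of the 39 lists and for all genes tested, the left panel shows the percentage of tested members called higher (red) or lower (blue), with dotted lines at the 17.8% and 20.1% of all genes, and the right panel the median log2 fold change (point) and the range of the members (line). The number tested is in parentheses; replication, chaperone and ribosome biogenesis genes top the order and naive identity genes close it.

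DNA replication genes rose almost as a block. Of 50 tested, 48 were called higher and none lower, with a median of 2.82. Mcm5, a subunit of the replicative helicase, rose from 70.1, 45.6 and 52.8 to 732, 901 and 816 (log2 fold change 3.82, SE 0.19), and Mcm2, another subunit, from 133, 109 and 114 to 1010.4, 877 and 1118. The controls and the immunised group did not overlap in either. Cdc45, which joins the helicase at the origin, was at least 34.3-fold higher, and Pcna, the sliding clamp, rose less, from 185, 149 and 157 to 662, 575 and 589. Rrm2, the regulated subunit of the enzyme that makes deoxynucleotides, rose from 9.28, 3.04 and 4.28 to 141, 79.2 and 126. Uhrf1 and Dnmt1, which copy DNA methylation onto new strands, rose by 5.01 and 1.26 on the log2 scale. Against 80 µg at 4 h, a comparison in which 15.7% of 12628 genes were called higher, 9.10% lower and 24.8% in all, 46 of 50 replication genes were higher at 12 h and none was lower. The gate changes with the time in that comparison, so the 2 cannot be told apart.

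The promoters of these genes hold sites that can be read in the reference sequence. E2F factors, which drive S phase genes, bind the form TTTGGCGC, which was found on either strand in 14.0% of 50 promoter windows of replication genes against 0.514% of 32851 mouse promoter windows and 1.01% of those of genes tested here. The form TTTCCCGC was found in 14.0%, against 1.07% and 2.12%. Each window is 300 bases from RefSeq, from 250 bases before an annotated start to 50 after it, and a match describes the letters and does not show that a factor was bound. The window of Mcm5 is shown because it holds the first form, in capitals, on the reverse strand and 149 bases before the start (GRCm38.p6, chr8:75109259-75109558, plus strand).
Mcm5: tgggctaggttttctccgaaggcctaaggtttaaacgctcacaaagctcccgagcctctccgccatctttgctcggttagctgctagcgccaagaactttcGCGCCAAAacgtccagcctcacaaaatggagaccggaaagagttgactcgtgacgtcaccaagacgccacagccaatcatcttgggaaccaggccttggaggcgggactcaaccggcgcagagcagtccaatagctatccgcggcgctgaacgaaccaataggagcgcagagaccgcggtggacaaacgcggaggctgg

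Genes of mitosis, which come into use after S phase, were split. Of 36 tested, 22 were called higher and 3 lower, with a median of 1.496. Cdk1, the kinase that starts mitosis, rose from 4.12, 0 and 11.4 to 85.0, 81.4 and 113, Top2a, which untangles replicated DNA, from 78.3, 89.2 and 128 to 671, 772 and 724, and the spindle checkpoint genes Bub1b and Ttk from 1.03, 1.01 and 4.28 to 37.5, 37.4 and 45.7 and from 1.03, 3.04 and 15.7 to 74.9, 90.2 and 74.8. Ccnb1, the mitotic cyclin, rose from 0, 2.03 and 1.43 to no more than 14.6, 11.01 and 18.5. The proliferation marker Mki67 was at 22.7, 33.5 and 51.4 and 134, 147 and 85.5, called higher with no overlap. Cdc25b, Cenpa and Kif23, which activate Cdk1, mark centromeres and build the midbody, fell instead: Cdc25b from 87.6, 48.7 and 77.1 to 0.914, 16.1 and 4.86, Cenpa from 77.3, 105 and 78.5 to 20.1, 5.14 and 11.7 and Kif23 from 64.9, 77.1 and 64.2 to 31.1, 27.1 and 18.5. In the 80 µg 24 h libraries, sorted as Blue-Red+, the mean of Mki67 was 3443 normalised counts, that of Cenpa 552 and that of Top2a 6156. Compared with 80 µg at 4 h, 33 of 36 were higher at 12 h.

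Regulators of the step into the cycle moved both ways, 6 higher and 5 lower of 20. The G1 kinases Cdk4 and Cdk6 rose from 101, 88.2 and 116 to 433, 542 and 504 and from 154, 196 and 166 to 1477, 1532 and 1432, and cyclin D2 (Ccnd2) from 4640.4, 4738 and 4645 to 10584, 11844 and 13130.0. The inhibitor p27, Cdkn1b, fell from 666, 692 and 581 to 57.6, 38.2 and 36.9 (log2 fold change -3.84, SE 0.21). Ccng2, a cyclin of resting cells, fell from 80.4, 63.9 and 78.5 to 2.74, 0 and 0, at least 28.4-fold, and the pocket protein Rbl2 from 407, 378 and 413 to 118, 76.3 and 63.2. In contrast the inhibitor p21, Cdkn1a, was at least 22.9-fold higher, at 137, 71.9 and 29.2 against 2.06, 0 and 2.86. The groups lay apart in each of these genes, as in most genes called.

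Histone genes were called in both directions, with the share called higher near that of all genes tested. Of 22 tested, 4 were called higher (18.2%) and 7 lower (31.8%), against 17.8% and 20.1% of all genes. The median was -0.28, and -0.67 without control replicate 2. The libraries were primed on poly(A), a tail that most replication-dependent histone mRNAs lack. The variants moved oppositely: H2afz rose from 63.9, 46.6 and 49.96 to 195, 250.2 and 185, while H2afv fell from 344, 301 and 273 to 25.6, 13.2 and 12.6. The linker histone Hist1h1c fell from 122, 100.4 and 87.1 to 15.5, 16.1 and 7.78. DNA methylation and Polycomb enzymes were called higher in 6 (22.2%) and lower in 9 (33.3%) of 27 cases. Their 2 H3K27 methyltransferases also moved oppositely, Ezh2 rising from 177, 216 and 206 to 941, 1137 and 1156 and Ezh1 falling from 212, 263 and 259.8 to 64.9, 49.2 and 45.7. Tet1, which oxidises methylcytosine, fell from 163, 178 and 153 to 34.7, 27.1 and 19.4, Cbx7, a reader of H3K27 methylation, fell from 211, 276 and 325 to 47.5, 33.7 and 27.2, and Bmi1, a Polycomb ring finger protein, rose from 111, 85.2 and 94.2 to 272, 266 and 300.4.

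Ribosome biogenesis genes rose nearly throughout, and of the 39 lists theirs gained most in summed counts. Of 52 ribosome biogenesis genes tested, 51 were called higher and none lower, with a median of 2.38, and their summed level went from 13460.0 to 14220.0 normalised counts in the control libraries to 89190.0 to 97850.0. Nucleolin, Ncl (GRCm38, chr1:86344719-86359400, minus strand), rose from 3103, 3396 and 2999 to 30346, 32749.9 and 31204, and was among the most counted genes of the 80 µg 12 h group. Npm1, the nucleolar chaperone nucleophosmin, rose from 1413, 1455 and 1356 to 11463, 11586 and 11919. The groups did not overlap in either. Nop56 and Nhp2, core proteins of the small nucleolar RNA complexes, rose by 2.49 and 3.29 on the log2 scale, and Pno1, needed to mature the small subunit, rose from 49.5, 51.7 and 51.4 to 606, 426 and 573. Most ribosomal protein genes were not called. Of 81 tested, 4 were called higher and 1 lower, with a median of 0.16. Rplp0 lay at 2755, 3508 and 2448 in the controls and 3420.3, 2877 and 3471 with antigen, which overlapped. The exceptions included Rps27 and its paralogue Rps27l, of which Rps27 fell from 5244, 5275 and 5513 to 2257, 1734 and 1891 and Rps27l rose from 139, 147 and 141 to 889.8, 897 and 1129. Ribosomal protein genes have many near-identical pseudogenes, and how reads matching several places were counted is not given in the sources used here.

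The E-box CACGTG, the core site of Myc and related factors, was found in 23.1% of the 52 promoter windows of ribosome biogenesis genes, in 7.15% of all windows and in 10.2% of those of genes tested. Pno1 is shown as one of the 12 windows that held it, with the site in capitals 37 bases after the start (GRCm38.p6, chr11:17211540-17211839, minus strand).
Pno1: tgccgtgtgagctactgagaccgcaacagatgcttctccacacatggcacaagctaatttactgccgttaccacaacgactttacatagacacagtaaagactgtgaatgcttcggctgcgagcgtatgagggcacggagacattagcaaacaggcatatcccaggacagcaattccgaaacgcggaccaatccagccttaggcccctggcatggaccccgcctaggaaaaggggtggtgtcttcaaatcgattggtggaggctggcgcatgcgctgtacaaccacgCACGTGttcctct

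Factors that use the ribosome rose with its assembly genes. Of 43 initiation and elongation factors, 32 were called higher and none lower (median 1.67), and of 20 cytosolic tRNA synthetases 19 were called higher and none lower (median 1.91). Eif5a, a factor that carries the modified residue hypusine, rose from 327, 307 and 317 to 2814, 2710.2 and 2603, and Eif2s2, a subunit of the factor that brings the first tRNA, from 741, 784 and 755 to 3635, 4517 and 4373. The elongation factor Eef1a1 was not called, at 3892, 4679 and 4588 against 4887, 5021 and 4967. Of the synthetases, Mars (methionine) rose from 87.6, 54.8 and 71.4 to 414, 474 and 415, Rars (arginine) from 144, 165 and 133 to 895, 892 and 874 and Lars (leucine) from 281, 309 and 257 to 808, 885 and 893. Spliceosome and hnRNP genes rose in 34 of 46 cases, with Snrpd1, a core protein of the spliceosomal particles, at 189, 152 and 174 and then 1680.0, 1539 and 1872. Srsf5 was the 1 member called lower, from 1212, 1109 and 1173 to 578, 545 and 371.

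Protein folding and turnover genes changed on the same scale. Chaperones were called higher in 25 of 28 cases (median 2.54) and none was called lower. The cytosolic chaperones Hsp90ab1 and Hsp90aa1 rose from 3649.9, 3665 and 3642 to 25759, 30976 and 31581 and from 489.6, 641 and 414 to 6869.8, 8208 and 8986. Hspd1, the mitochondrial chaperonin, rose from 179, 241 and 127 to 3592, 3871 and 4702, although its exons overlap those of Hspe1 on the other strand. Hsph1, an exchange factor for Hsp70, rose from 155, 170.4 and 171 to 1516, 1847 and 3298, with 1 library well above the other 2. Cct3, a subunit of the cytosolic chaperonin, rose from 362, 438 and 347 to 2044, 2264 and 2282. Fkbp5, a co-chaperone induced by glucocorticoids, was among the members not called, at 64.9, 103 and 61.4 and 104, 73.4 and 137. Proteasome genes were higher in 34 of 37 cases and lower in none (median 1.93), led by the activator Psme3, from 93.8, 89.2 and 104 to 576, 723 and 680.4, and the regulatory subunit Psmd7, from 315, 369 and 246 to 1615, 1858 and 1550.4. The immunoproteasome subunit Psmb8, listed with antigen presentation, was not called, at 641, 663 and 735 and 576, 575 and 579.

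The heat shock element was searched in its short inverted form GAANNTTC, found in 31.2% of 32 windows of chaperone genes against 7.86% of all windows and 5.68% of those of genes tested. Windows can overlap, so the same site can count more than once. This was so for the windows of Hsph1 and for those of Hspd1 and Hspe1. A window of Hsph1 that holds it 20 bases after the start is shown (GRCm38.p6, chr5:149636266-149636565, minus strand).
Hsph1: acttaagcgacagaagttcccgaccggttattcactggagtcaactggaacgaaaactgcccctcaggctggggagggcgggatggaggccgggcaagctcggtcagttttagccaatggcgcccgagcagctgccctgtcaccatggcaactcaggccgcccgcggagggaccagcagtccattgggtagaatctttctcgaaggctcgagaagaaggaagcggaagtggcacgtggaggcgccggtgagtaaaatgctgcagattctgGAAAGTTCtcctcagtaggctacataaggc

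Genes of the endoplasmic reticulum (ER) rose in part. Of 30, 17 were called higher and 2 lower (median 1.30). Hspa5, the ER Hsp70 protein BiP, rose from 829.8, 871 and 718 to 5179.8, 5649 and 5847, Calr, the lectin chaperone calreticulin, from 740.1, 624 and 751 to 2569.8, 3039.6 and 3243, and Sdf2l1, a cofactor of BiP, from 7.22, 7.10 and 21.4 to 189, 156 and 191. Manf, a secreted ER stress factor, and the disulphide isomerase Pdia6 rose by 2.08 and 2.21 on the log2 scale. The members called lower were Dnajb9, a BiP cofactor, from 27.8, 31.4 and 47.1 to 10.96, 9.54 and 5.83, and Eif2ak3, the stress sensor PERK, from 58.8, 30.4 and 55.7 to 24.7, 22.7 and 10.7, a call lost in 3 of the 6 fits that left out a library. The death-associated stress factor Ddit3 (CHOP) also fell, from 108, 119 and 129.9 to 25.6, 24.9 and 66.1, and its exons overlap those of Mars. Groups did not overlap in these genes. The ER stress element, CCAAT and CCACG with 9 bases between them, was found in 8 of the 23 windows of ER genes (34.8%), against 0.119% of all windows and 0.127% of those of genes tested. That of Hspa5 holds it on the sense strand 65 bases before the start (GRCm38.p6, chr2:34771840-34772139, plus strand).
Hspa5: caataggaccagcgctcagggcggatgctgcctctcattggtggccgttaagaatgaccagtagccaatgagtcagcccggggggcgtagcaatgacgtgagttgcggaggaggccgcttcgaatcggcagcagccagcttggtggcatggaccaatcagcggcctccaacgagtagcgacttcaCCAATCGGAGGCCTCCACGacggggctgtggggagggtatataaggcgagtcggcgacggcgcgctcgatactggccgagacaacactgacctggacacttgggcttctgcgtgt

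Purine and pyrimidine synthesis genes were called higher in 19 of 23 cases (median 2.13). Cad, the enzyme of the first pyrimidine steps, rose from 81.4, 38.5 and 55.7 to 605, 772 and 662, and Impdh2, which makes guanine nucleotides, from 116, 113 and 163 to 806, 789 and 858. Dctpp1, which cleans the dCTP pool, rose from 21.6, 32.5 and 34.3 to 533, 589.9 and 509. The CTP synthases diverged, Ctps rising from 37.1, 44.6 and 42.8 to 316, 326 and 363 and Ctps2, the 1 member called lower, falling from 144, 174 and 143 to 19.2, 27.9 and 15.6. In serine and one-carbon metabolism, Shmt1 rose from 6.18, 11.2 and 11.4 to 484, 506 and 440.3, Shmt2 from 63.9, 60.8 and 61.4 to 682, 707 and 635, Psat1 from 33.0, 29.4 and 41.4 to 618, 624 and 599 and Mthfd2 from 214, 138 and 146 to 876, 1026 and 961, within a list of which 11 of 19 were higher and 3 lower. Atf4, the factor that controls many of them, rose from 382, 413 and 439.7 to 1008, 1452 and 1124, and Ddit4, an inhibitor of mTORC1 in the same list, fell from 907, 1288 and 538 to 260.4, 218 and 260.5. The libraries of the 2 groups did not overlap in any of these genes, as in most genes called. Among 19 transporters and Bcat enzymes, 13 were higher and 1 (Slc2a3) lower. The rises included the transferrin receptor Tfrc, from 77.3, 72.0 and 74.2 to 618, 630.2 and 736, the folate carrier Slc19a1, from 62.9, 48.7 and 24.3 to 377, 464 and 354, and the large amino acid transporter Slc7a5, from 9.28, 13.2 and 14.3 to 98.7, 58.7 and 74.8.

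Energy metabolism changed unevenly. Of 31 glycolysis and pentose phosphate genes, 13 were called higher and 2 lower (median 0.78). Beside Hk2, Tpi1 (triose phosphate isomerase) rose from 28.9, 24.3 and 17.1 to 359, 292 and 348, Pkm (pyruvate kinase) from 556, 515 and 407 to 2847, 3561 and 2892 and Ldha (lactate dehydrogenase) from 475, 375 and 493 to 2562, 2974 and 2618. Eno1 was not called, at 161, 159 and 179.9 and 153, 169 and 135. Pdk1, a kinase that inhibits pyruvate dehydrogenase, fell from 789.6, 933 and 1001 to 139, 124 and 128. Of the glucose carriers, Slc2a1 lay at 51.5, 32.5 and 55.7 and 69.4, 95.4 and 111, short of a call. It was called with TMM scaling, with only the samples of the 2 groups in the fit and in 3 of the 6 fits that left out a library. Slc2a3 fell from 80.4, 63.9 and 57.1 to 43.8, 25.7 and 24.3, a call lost in 3 of the 6 fits that left out a library, with thinning to the smallest library and with limma on the rlog values. Nuclear genes of oxidative phosphorylation were higher in 42 of 69 cases and lower in none (median 1.20), for example Uqcrq from 283, 287 and 283 to 1404, 1492 and 1312, Atp5b from 650.4, 762 and 758 to 2435, 2199 and 2191 and the electron carrier Cycs from 35.0, 31.4 and 27.1 to 227, 223 and 166. The mRNAs encoded in the mitochondrion were mostly not called: of 8 tested, mt-Nd6 was the 1 called higher (its exons overlap those of mt-Nd5 on the other strand), mt-Nd2 lay at 11986, 11412 and 11088 and 15983, 17586 and 19489.9, and mt-Cytb at 8792, 8431 and 9395 and 5436, 4353 and 5954. Sterol and fatty acid genes were mostly not called (3 higher and 5 lower of 33). The fatty acid synthesis enzymes Fasn and Acaca rose from 206, 129 and 133 to 672, 859.9 and 667 and from 71.1, 44.6 and 47.1 to 248, 236 and 186.

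Of 26 early receptor-response genes, 11 were called higher than control and 2 lower. Against 80 µg at 4 h, 18 of 26 were lower at 12 h and none was higher. Nr4a3, which drives the Timer in these mice, rose from 37.1, 28.4 and 12.8 to 121, 151 and 191 normalised counts without overlap. Nr4a1 lay at 18.6, 26.4 and 64.2 in the controls and 122, 41.8 and 145 with antigen, called higher although the libraries overlapped. In the 80 µg 4 h group the mean of Nr4a3 was 3299 and that of Nr4a1 2008, and the differences between the times were -4.27 and -4.14 on the log2 scale. Dusp4 and Dusp5, phosphatases of the MAP kinases, were higher than control, Dusp4 by at least 13.4-fold and Dusp5 from 111, 109 and 117 to 525, 731 and 833. Dusp4 was not called between the times (mean 35.4 at 4 h, log2 fold change 0.39). Fosl2, an AP-1 subunit, rose from 17.5, 19.3 and 8.57 to 57.6, 101 and 166, and Myc, which drives growth genes, from 41.2, 51.7 and 68.5 to 226, 208 and 147. Egr1 and Jun were below control, Egr1 at 204, 170.4 and 158 and then 45.7, 42.6 and 71.0 and Jun at 95.9, 152 and 99.9 and then 41.1, 35.2 and 62.2, while Egr2 rose from 19.6, 12.2 and 17.1 to 74.0, 56.5 and 45.7.

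**Figure D4:**
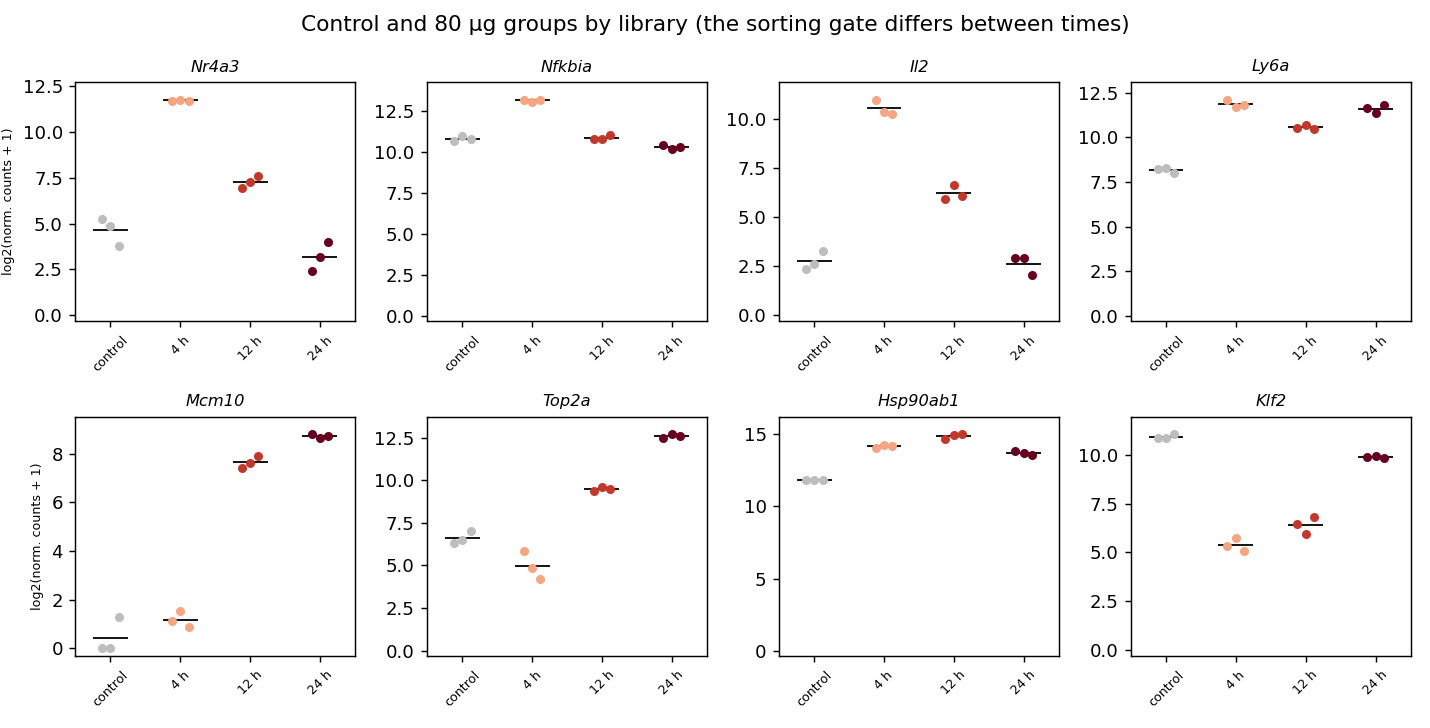
Normalised counts of 8 genes in each library of the control group and of the 80 µg groups at 4 h, 12 h and 24 h, as log2(normalised counts + 1), with a bar at the mean on that scale. The sorting gate differs between the times; Nr4a3, Nfkbia and Il2 are highest at 4 h, Hsp90ab1 is highest at 12 h, Mcm10 and Top2a are highest at 24 h, and Klf2 is lowest at 4 h.

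Genes of the NF-kB pathway were called in both directions against control, as were all genes tested (17.8% higher and 20.1% lower). Of 25 in the pathway list, 6 were higher (24.0%) and 7 lower (28.0%). Against 80 µg at 4 h, 16 were lower at 12 h and 1 was higher. Nfkbia, the inhibitor that NF-kB itself induces, lay at 1652, 2024 and 1803 in the controls and 1774, 1769 and 2101 at 12 h, which overlapped, and had a mean of 9209 at 4 h. Nfkb1 was likewise not called (443, 459 and 498 and 468, 364 and 509) against a mean of 4048 at 4 h. Nfkbib, a further inhibitor of the family, was called higher than control, from 83.5, 85.2 and 68.5 to 333, 399 and 343, and its exons overlap those of Sirt2 on the other strand. Tnip3, an inhibitor of NF-kB signalling, had no control count and 95.9, 65.3 and 83.6 with antigen, at least 23.5-fold higher. Nfkb2 and Malt1, the protease of the receptor-to-NF-kB complex, rose from 55.7, 52.7 and 35.7 to 138, 219 and 154 and from 279, 222 and 224 to 630.3, 614 and 431. The kinase Ikbkb, which acts on the inhibitors of NF-kB, fell from 1046, 981 and 908 to 318, 319.9 and 262.

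Cytokine genes were few but included some of the largest rises. Of 23, 9 were called higher and 3 lower. Il2 rose from 4.12, 5.07 and 8.57 to 60.3, 97.6 and 67.1, with a mean of 1514 in the 80 µg 4 h group. Ifng, the Th1 cytokine, had no control count and 28.3, 29.3 and 35.0 with antigen, at least 8.89-fold, and Lif, of the interleukin 6 family, was at least 19.6-fold higher. Il10, which restrains immune responses, lay at 3.09, 0 and 9.99 and 35.6, 38.2 and 23.3, higher in all 3 immunised mice. The members called lower were Ltb, a ligand that shapes lymphoid tissue, from 579, 487 and 1045 to 30.1, 33.0 and 23.3, Il16, from 515, 513 and 522 to 119, 77.8 and 131, and Tnfsf10 (TRAIL), from 59.8, 48.7 and 45.7 to 4.57, 7.34 and 3.89. B cells also make Ltb, and the part of the lower B cell markers in its fall was not tested.

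Cytokine receptors as a list went the other way, 16 lower and 6 higher of 28 (median -1.50). Il7r, the receptor for the survival cytokine of naive cells (GRCm38, chr15:9505788-9530176, minus strand), fell from 2505, 3272 and 2104 to 95.9, 148 and 123 (log2 fold change -4.34, SE 0.27). Il6ra fell from 1057, 1096 and 1201 to 284, 191 and 179.8, Il18r1 from 158, 164 and 178 to 12.8, 4.40 and 8.75, and Ifngr2 from 111, 119 and 107 to 12.8, 5.87 and 19.4. In the other direction Il2ra, the chain that gives the interleukin 2 receptor its high affinity, rose from 76.3, 25.4 and 49.96 to 1989, 2011 and 1904, and the interleukin 12 receptor chain Il12rb1 was at least 41.7-fold higher. All of these were separated between the groups. Feedback genes of cytokine signalling were called higher in 5 of 12 cases, with Cish, induced through STAT5, from 34.0, 77.1 and 55.7 to 420.2, 404 and 522 and Socs1 from 73.2, 63.9 and 84.2 to 277, 156 and 380.1. Socs3 was not called (224, 223 and 244 and 124, 68.2 and 204), but was without 80 µg 12 h replicate 3.

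Receptors that tune the response were called in both directions. Of 17 coinhibitory genes 8 were higher (47.1%) and 5 lower (29.4%), against 17.8% and 20.1% of all genes tested. Their median was 0.43, and 0.86 and 0.95 without control replicate 1 or 2. Pdcd1 (PD1) rose from 6.18, 3.04 and 7.14 to 81.3, 64.6 and 68.0, Ctla4 from 18.6, 7.10 and 31.4 to 256, 195 and 262, and Cd200, a ligand that calms myeloid cells, from 32.0, 21.3 and 17.1 to 324, 263 and 259.5. Lag3 and Tigit had no control count and lay at 12.8, 9.54 and 8.75 and at 7.31, 8.07 and 12.6, which is at least 2.98-fold and at least 2.69-fold. The call of Tigit was lost in 5 of the 6 fits that left out a library, with a replicate block and with all libraries thinned to the smallest. Cd96 and Cd5 fell, Cd96 from 266, 207 and 248 to 39.3, 36.0 and 21.4 and Cd5, which damps receptor signals, from 426, 356 and 421 to 192, 175 and 147. Of 18 costimulatory genes 6 were higher (33.3%) and 4 lower (22.2%), the latter near the share of all genes (median -0.48). Tnfrsf4 (OX40) rose from 48.4, 28.4 and 44.3 to 787, 1108 and 608, Tnfrsf9 (4-1BB) from 18.6, 7.10 and 24.3 to 317, 389.6 and 205 and Icos from 301, 267 and 219.8 to 1604, 1925 and 1403. Slamf6 and Cd84, adhesion receptors of one family, fell from 665, 637 and 659.5 to 100.5, 85.8 and 71.9 and from 645, 633 and 677 to 109.6, 124 and 112, and Cd27 from 818, 725 and 829 to 259, 241 and 244. Cd28 was not called, at 1254, 1242 and 1320.5 and 909.9, 894 and 874.

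Part of the receptor apparatus was reduced. Of 30 receptor chain and proximal signalling genes, 14 were called lower and 3 higher (median -0.86). Cd3g fell from 382, 446 and 567 to 112, 65.3 and 72.9, Cd3d from 1428, 1288 and 1416 to 484, 591 and 557 and Cd3e from 947, 864 and 922 to 385, 423 and 381. Lck, the kinase that starts the signal, fell from 2117, 2107 and 2060.0 to 905, 874 and 878. The lowest member was Dgka, which removes diacylglycerol and so damps Ras, from 1992, 2058 and 2171 to 145, 156 and 127 (log2 fold change -3.84, SE 0.13). Rasgrp1, which answers to diacylglycerol, fell from 1044, 981 and 1001 to 129, 124 and 146. Zap70 and the adaptor Sh2d2a rose from 288, 314 and 239.8 to 587, 719 and 642 and from 254, 275 and 194 to 618, 819 and 669.7. Cd4 fell short of a call, at 1025, 973 and 1122 and 533, 504 and 642 (log2 fold change -0.89).

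Lineage factors gave a mixed picture, 16 higher (48.5%) and 6 lower (18.2%) of 33, against 17.8% and 20.1% of all genes tested. Tbx21 (T-bet, Th1) rose from 9.28, 11.2 and 4.28 to 184, 218 and 161, Irf8 from 99.0, 53.7 and 42.8 to 2481, 2706 and 2133 and Maf, which supports Il10 and Il21, from 243, 134 and 153 to 2372, 1770.4 and 1797. Zbtb32, a repressor of activation genes, was at least 43.4-fold higher. Gata3 (Th2) fell from 326, 371 and 383 to 62.1, 62.4 and 71.9 and Tox from 391.7, 334 and 353 to 113, 104 and 124. Foxp3, the regulatory T cell factor, was not called and overlapped, at 56.7, 14.2 and 45.7 and 28.3, 18.3 and 23.3. The 5 regulatory T cell markers summed to 193 to 441 in the controls and 2311 to 2417 with antigen, a rise carried by Il2ra and Ctla4, which activated cells also express. Of 16 cytotoxic granule and effector genes, 4 were higher and 3 lower (median 0.58, and 0.21 without control replicate 1), so that 43.8% were called against 37.9% of all genes tested. Gzmb rose from 3.09, 0 and 8.57 to 88.6, 60.9 and 129 and the granzyme inhibitors Serpinb6b and Serpinb9 from 22.7, 17.2 and 27.1 to 544, 475 and 573 and from 51.5, 53.7 and 34.3 to 407, 599 and 451. Prf1 (perforin) lay at 8.25, 9.13 and 7.14 and 3.65, 2.20 and 9.72, not called, and Klrd1 (CD94) was at least 25.4-fold lower.

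Genes of naive identity and quiescence fell in 26 of 32 cases and rose in none (median -2.66). S1pr1, which lets cells leave lymphoid organs (GRCm38, chr3:115710433-115715072, minus strand), fell from 1322, 1129 and 1532 to 27.4, 10.3 and 16.5 (log2 fold change -5.91, SE 0.43, adjusted p = 8.21e-41). Klf2, a factor that controls it, fell from 1862, 1879 and 2128 to 86.8, 61.6 and 114. Tcf7, a factor of naive and memory cells, fell less, from 2507, 2514 and 2807 to 851, 556 and 877. Btg1 and Btg2, which help keep T cells quiescent, fell from 2036, 2136 and 2138 to 382, 335 and 345 and from 510.2, 544 and 615 to 44.8, 28.6 and 50.5. Every one of these genes had its groups apart, as did most genes called. Ccr7, the chemokine receptor for lymph node entry, was not called, at 1173, 1139 and 1363 and 1128, 923 and 802, against a mean of 274 in the 80 µg 4 h group. Of 28 migration genes, a list that holds S1pr1 and Ccr7 too, 12 were lower and 3 higher. The integrin Itgb3 fell from 329.8, 285 and 349.8 to 10.05, 18.3 and 13.6, and Cxcr5, the receptor that leads cells to follicles, rose from 23.7, 9.13 and 15.7 to 92.3, 91.0 and 93.3. Gimap GTPases, which support lymphocyte survival, fell in 6 of 8 cases, Gimap6 from 1329, 1381 and 1322 to 184, 272 and 202 and Gimap4 from 1969.8, 1736 and 1777 to 359, 453 and 351.

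Survival genes were called in both directions. Bcl2 fell from 1273, 1621 and 1258 to 420.2, 332 and 414 while its relative Bcl2l1 rose from 34.0, 37.5 and 30.0 to 179, 311 and 195. Of the death genes, Bbc3 (Puma) fell from 129.9, 199 and 106 to 26.5, 8.80 and 2.92, Bax rose from 38.1, 19.3 and 48.5 to 103, 146 and 105, and Bcl2l11 (Bim) was not called, at 325, 291 and 291 and 348, 381 and 301. In the whole family 6 of 16 were higher (37.5%) and 2 lower (12.5%), against 17.8% and 20.1% of all genes tested. Regulators of mRNA decay fell in 11 of 20 cases, among them Zfp36l2 from 386, 386 and 253 to 92.3, 117 and 67.1, Zfp36, which shortens cytokine mRNAs, from 116, 151 and 211 to 68.5, 68.2 and 32.1, and Zc3h12a (Regnase-1) from 26.8, 39.5 and 25.7 to 18.3, 8.80 and 13.6, the last a call lost in 2 of the 6 fits that left out a library, with only the samples of the 2 groups in the fit and with limma on the rlog values. Upf1, of nonsense-mediated decay, was the 1 called higher, from 159, 199.8 and 167 to 348, 406 and 447. Autophagy and lysosome genes were lower in 11 of 30 cases and higher in 1. Gabarapl1, an Atg8 family protein of the autophagosome, was the one called higher, from 8.25, 9.13 and 4.28 to 38.4, 36.0 and 14.6, and its exons overlap those of an antisense gene. Atg2a fell from 89.7, 88.2 and 107 to 18.3, 31.5 and 25.3 and Ulk2 fell from 126, 131 and 91.4 to 30.1, 28.6 and 23.3.

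Interferon-stimulated genes were lower in 26 of 39 cases and higher in 3 (median -1.43). Ddx58, which encodes the RNA sensor RIG-I, fell from 417, 474 and 458 to 25.6, 30.8 and 19.4. Ifit3 fell from 42.3, 88.2 and 48.5 to 5.48, 2.20 and 1.94, Irf7, a factor that amplifies interferon, from 83.5, 151 and 98.5 to 10.05, 11.01 and 8.75, and Oas2, which senses double-stranded RNA, from 59.8, 64.9 and 106 to 5.48, 6.60 and 3.89. No library with antigen reached a control library in these genes, as is the case for most genes called lower. Isg15, a ubiquitin-like modifier, rose instead from 46.4, 72.0 and 57.1 to 225, 202 and 237, Bst2 (tetherin) from 39.2, 51.7 and 62.8 to 124, 168 and 162 and Ly6a (Sca-1) from 299.9, 315 and 257 to 1474, 1676 and 1397. MHC class I genes fell in 11 of 20 cases and rose in 1 (Calr), with H2-K1 from 5318, 5463 and 5666 to 1715, 1425 and 1737 and B2m, the shared light chain, from 8877, 9676 and 10063 to 4378, 4245 and 4543. H2-Q7 fell from 1311, 1766 and 1717 to 246, 127 and 240.1, and H2-Q4, H2-Q6 and H2-Q7 have near-identical sequences that the counting may not have separated.

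The interferon-stimulated response element, searched as GAAANNGAA, was found in 54.5% of the 33 windows of interferon-stimulated genes, 8.56% of all windows and 7.35% of those of genes tested. Ifit3, which fell, and Isg15, which rose, are shown together because the window of each holds the element 3 times, in capitals, Ifit3 on the reverse strand (GRCm38.p6, chr19:34583279-34583578, plus strand) and Isg15 on the sense strand in overlapping copies (GRCm38.p6, chr4:156200769-156201068, minus strand).
Ifit3: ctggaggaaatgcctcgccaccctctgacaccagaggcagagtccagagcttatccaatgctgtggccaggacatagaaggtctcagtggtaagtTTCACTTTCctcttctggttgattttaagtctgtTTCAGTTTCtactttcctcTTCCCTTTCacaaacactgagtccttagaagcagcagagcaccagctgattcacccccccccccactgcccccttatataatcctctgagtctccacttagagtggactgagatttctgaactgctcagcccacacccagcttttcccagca
Isg15: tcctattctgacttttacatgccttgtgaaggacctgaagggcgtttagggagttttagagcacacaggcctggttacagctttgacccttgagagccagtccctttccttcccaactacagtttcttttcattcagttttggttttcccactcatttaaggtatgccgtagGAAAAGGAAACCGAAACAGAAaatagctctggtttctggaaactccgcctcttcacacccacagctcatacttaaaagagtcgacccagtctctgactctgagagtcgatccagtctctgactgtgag
The amino acid response element TGATGNAA was found in 18.2% of 22 windows of the one-carbon list against 3.97% of all and 2.29% of those of genes tested, and the sterol regulatory element TCACCCCAC in 3.33% of 30 against 0.551% and 0.55%.

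Levels at the top of the libraries moved too. Malat1, a nuclear noncoding RNA (GRCm38, chr19:5795690-5802672, minus strand), fell from 46081, 52324 and 55382 to 7563, 7308 and 8346, and Tmsb4x, which binds actin monomers, from 11339, 10012 and 13902 to 4881, 2464 and 5409. Serbp1, an mRNA-binding protein of ribosomes, rose from 3770.5, 3745 and 3606 to 17134, 20475 and 18257. Actb was not called (43918, 39646 and 41339 and 42936, 54497 and 47225), nor was Pabpc1, the poly(A)-binding protein, with a log2 fold change of 0.89. Mitochondrial ribosomal RNA, mt-Rnr2, lay at 139187, 133400.0 and 140002 and 79424, 90465 and 89242, lower in all 3 immunised mice and short of a call at -0.67.

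Whether the state at 12 h depended on the dose was tested against 0.8 µg at the same time and in the same gate. Of 11145 genes tested 311 (2.79%) were called, 204 higher (1.83%) and 107 lower (0.96%) with 80 µg. With the samples of these 2 groups alone in the fit, 145 were called, 100 higher and 45 lower. Without 80 µg 12 h replicate 2, 68 were called lower. Between the doses the median log2 fold change was -0.04 for ribosome biogenesis, -0.0031 for chaperones, 0.06 for proteasome genes and 0.44 for replication genes. Mitosis genes, with a median of 1.12, were called higher with 80 µg in 14 of 36 cases and replication genes in 8 of 50. Mki67 was at a mean of 17.4 with 0.8 µg and 134, 147 and 85.5 with 80 µg, and Rrm2 at 27.5 and 141, 79.2 and 126. The 0.8 µg mean of Mki67 was below the control values given above.

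Of 18 cytokines 3 were called higher and 2 lower with 80 µg (median 0.04), and of 26 cytokine receptors 3 were called higher and none lower (median 0.09). The single genes that follow come from several lists and were picked with their values known. Il21 had a mean of 2.39 normalised counts with 0.8 µg and 199, 249 and 165 with 80 µg (log2 fold change 5.97), and Gm12534 had none with 0.8 µg. Il10 had a mean of 1.81 with 0.8 µg, against the 35.6, 38.2 and 23.3 given above, and Crabp2 one of 40.8. The metallothioneins Mt1 and Mt2, which bind zinc, rose against control from 0, 2.03 and 0 to 29.2, 30.8 and 54.4 and from 5.15, 0 and 0 to 35.6, 18.3 and 41.8, and had means of 2.18 and 1.00 with 0.8 µg. Maf, Icos and Ctla4 were higher with 80 µg by 2.20, 1.76 and 2.40 on the log2 scale, and Ly6a by 2.57. Malt1, higher than control with 80 µg, had a mean of 83.4 with 0.8 µg, below the control values. In the other direction Tnfrsf9 had a mean of 1099 with 0.8 µg, Nr4a1 of 495, Nr4a3 of 562 and Gata3 of 334, each above its level with 80 µg (log2 fold changes -1.79, -2.19, -1.80 and -2.33). Cd8a, a marker of other cells, had a mean of 53.8 with 0.8 µg and 2.74, 2.93 and 5.83 with 80 µg, and its part in these differences was not tested.

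**Figure D5:**
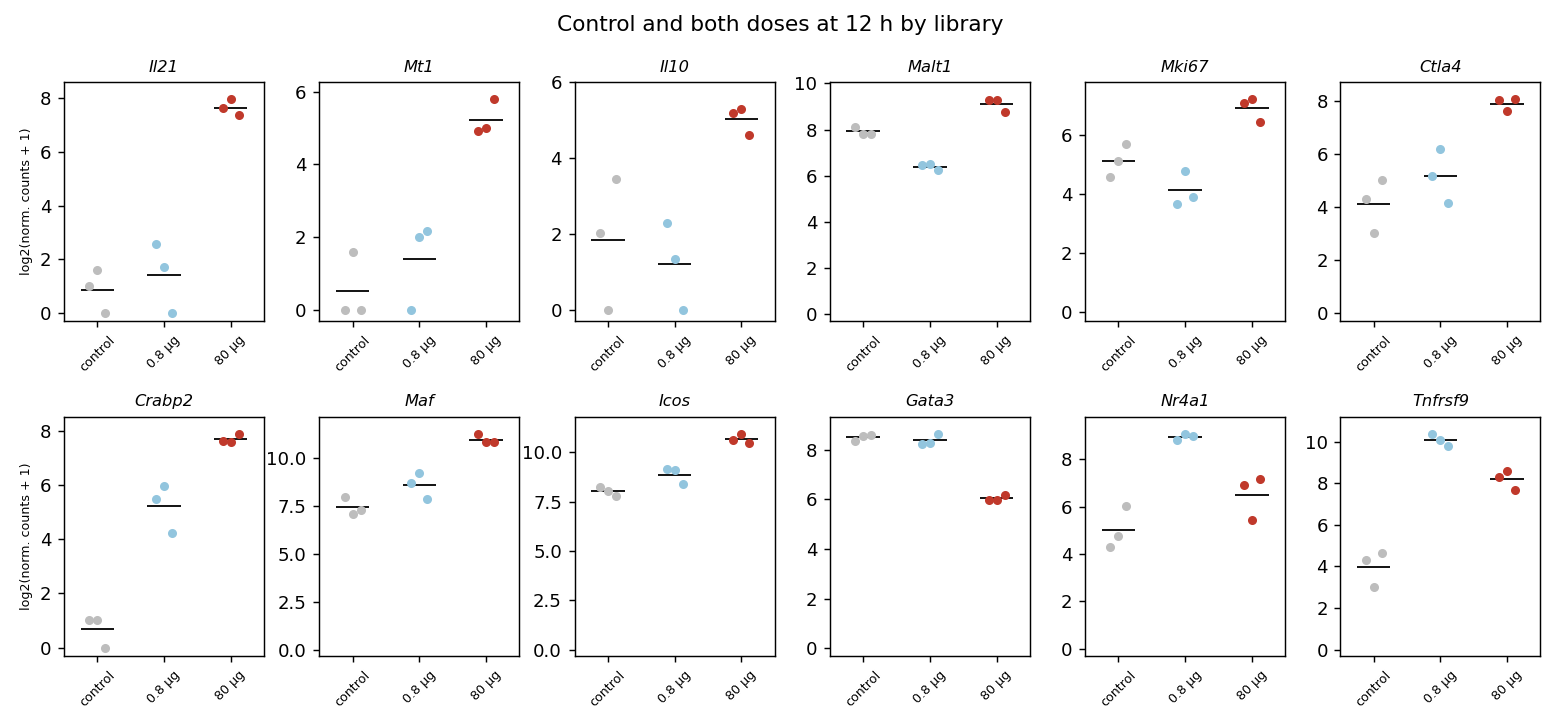
Normalised counts of 12 genes in each control library and in each library of the 0.8 µg and 80 µg groups at 12 h, as log2(normalised counts + 1), with a bar at the mean on that scale. Il21, Mt1 and Il10 lie near the control level with 0.8 µg and above it with 80 µg, Malt1 and Mki67 are lowest with 0.8 µg, and Gata3 is lowest with 80 µg.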

How the data were processed

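CD4+ T cells were sorted per mouse and 15 to 25 ng of RNA was made into 3' QuantSeq libraries read on a NextSeq 500. To make the deposited count table the authors trimmed reads with Bbduk, aligned them to the mouse genome (mm10) with STAR, version 2.5.2a in the submitters' processing notes, and counted whole reads per gene with HTSeq. The strand setting, the treatment of reads that match several places and the annotation release are not given in the sources used here. The authors also deposited regularised log2 (rlog) values, used only in an alternative. All 21 libraries mapped to columns, leaving 0 unmapped.

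Genes with at least 10 counts over all samples were fitted with DESeq2 1.42.0 in R 4.3.3 on the 21 libraries of 7 groups, with the normal prior on fold changes. Calls needed an adjusted p (Benjamini-Hochberg) under 0.05 and a log2 fold change beyond 1. DESeq2 left 1486 genes with no adjusted p, and these were not counted as tested. Alternatives used edgeR 4.0.16, limma 3.58.1, other size factors, filters and samples, and left out each library in turn. On simulated counts for the main comparison (14701 genes, 200 changed), the DESeq2 calls recovered 75% of 4-fold and 77.7% of 8-fold changes with 0 false calls, and their folds were a median 0.648 of the true log2 size. With edgeR recovery was 96.6% and 99.1% (4 false calls, median 1) and with limma 94.3% and 98.2% (8 false calls, median 0.991). The simulation changed a far smaller share of genes than the 37.9% called in the data, and the normal prior depends on the spread of fold changes. Its recovery and fold ratio with DESeq2 therefore cannot be carried over to the folds reported here. In the data, unshrunken folds gave 5289 calls against 5235. A floor of 3 counts per library was 0.606 to 1.28 CPM, for counting error only. Genes named are the 12 highest and the 12 lowest log2 fold changes among called genes without overlap whose mean reached 20 normalised counts, and, in each of 39 lists, its anchor genes and the 3 members highest and the 3 lowest among those called. The most counted genes, markers, Gm42418 and the promoters shown were added. The genes and lists were chosen with earlier results of these data known. Of 339 genes eligible to be named, 107 had an exon overlapping that of another gene, for 88 of them an antisense gene and for 30 one in the same orientation. Locations are of the gene in GRCm38. Promoter windows come from RefSeq (GRCm38.p6). Some genes that the rule names are not reported here.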

Additional observations from a re-analysis of the deposited data

Results flagged for a closer look

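Levels differed between the doses for 37 of the genes in the report, by the direct test of 80 µg against 0.8 µg at 12 h with DESeq2, and values below are log2 fold changes of that test. The largest rises with 80 µg were those of Gm12534 (7.05), Il21 (5.97), Mt2 (4.01), Mt1 (3.70), Il10 (3.48), Malt1 (2.71), Mki67 (2.57) and Ly6a (2.57). Further rises were those of Ctla4 (2.40), Crabp2 (2.25), Maf (2.20), Cdkn1a (2.13), Rrm2 (2.02), Il2 (1.97), Top2a (1.78), Ttk (1.78) and Icos (1.76). Smaller rises were those of Cd5 (1.65), Egr2 (1.63), Socs3 (1.55), Tbx21 (1.49), Cdk1 (1.48), Il12rb2 (1.33), Uhrf1 (1.29), Cdc45 (1.25), Mcm10 (1.19), Il2ra (1.13) and Irf4 (1.01). Levels were lower with 80 µg for Cd8a (-3.58), Gata3 (-2.33), Nr4a1 (-2.19), Nr4a3 (-1.80), Tnfrsf9 (-1.79), Zc3h12a (-1.53), Egr1 (-1.51), Tox (-1.33) and Cd8b1 (-1.02). Cd8a, which was not called against control, and Cd8b1 are markers of CD8 T cells, with a Cd8a mean of 53.8 normalised counts in the 0.8 µg 12 h libraries, and the part of such cells in these differences was not tested. Gm12534 had no count in any 0.8 µg library, so its value is not a fold that could be measured, and it overlaps Il21 on the other strand. The calls of Cd8b1, Il12rb2, Irf4, Mcm10, Socs3, Ttk and Zc3h12a between the doses were lost under at least 1 alternative.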

How the results depend on the processing

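Against control, between 4914 and 5075 genes were called when each library was left out in turn, 2322 to 2416 higher and 2574 to 2678 lower, and every other setting kept these counts within 1.5 times. Calls of single genes were compared under the alternatives that kept the fold threshold. Of the 224 genes with values in the report and an adjusted p, 218 kept their call under each of these in which they could be tested. The 6 that did not were Eif2ak3, Slc2a1, Slc2a3, Socs3, Tigit and Zc3h12a. None of the 224 changed direction. With adjusted p under 0.05 alone, which this count leaves out, genes given as not called, such as Cd4 and Cd28, would be called. The median of the NF-kB list turned from -0.065 to 0.0211 when only the samples of the 2 groups were fitted. Of 663 list medians recomputed, 580 stayed within the spread between replicates (1 SD), this 1 turned, and 82 moved beyond it. Of the 82, 37 came from leaving out a library, 16 from limma on the rlog values and 14 from fitting only the 2 groups, and the spliceosome list, with 13, and the ATF4 and one-carbon list, with 8, moved most often. Among medians given in the report, that of coinhibitory genes was 0.85 with only the 2 groups fitted and 0.97 with thinning, that of effector genes 0.17 with limma on the rlog values and that of ribosomal protein genes 0.25 with only the 2 groups fitted.

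Between the doses, 311 genes were called, and 145 (100 higher and 45 lower) when only the samples of the 2 groups were fitted. With adjusted p under 0.05 alone the number was 699, of which 409 were higher and 290 lower. Leaving out each library gave 227 to 330 calls, 159 to 208 higher and 68 to 122 lower, the lowest without 80 µg 12 h replicate 2. Of 37 genes in the report called between the doses, 30 were called under every alternative. Against 80 µg at 4 h, adjusted p alone gave 5415 calls, 2980 higher and 2435 lower, leaving out each library gave 2872 to 2984, 1818 to 1863 higher and 1054 to 1121 lower, and scaling by library totals moved the median of all genes by 0.12. The cause of these shifts was not tested.

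Whether replicate numbers pair the samples is not stated in the sample labels, and the correlations did not settle it. Correlations of the deviations of same-numbered libraries were -0.08, 0.10 and -0.00 against control, 0.204, -0.132 and 0.168 between the doses and 0.147, 0.0814 and 0.125 between the times. They were not over 0.1 in every pair of any comparison, although between the times each library correlated best with its own number, a hint from the data and not from the design. The call of Tigit was lost with the block (log2 fold change 1.565, adjusted p = 0.17, DESeq2) and with thinning (1.207, adjusted p = 0.33), against 2.86 and 0.0217. With a replicate block 5147 genes were called against control, 288 between the doses and 3066 between the times. Libraries held 2352800 to 4953890 counts in the main comparison, and thinning all to the smallest library gave 4993 calls.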
